A study of Homo sapiens with 6 samples.

Results

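The interferon-stimulated genes and their regulators are a list of 47 genes, 47 of the 60658 gene identifiers in the deposited tables, listed by name for their place in the interferon response. It holds nucleic acid sensors, the transcription factors of the response and the antiviral effectors that interferon switches on, and all 47 were matched to an identifier. RNA was measured in 6 human prostate cancer lines with 1 library each, so there is no replicate check on any difference. The lines form 2 lineages, and the comparison asked is how cells selected for resistance to a taxane differ from the cells they came from.

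CTXR is a cabazitaxel-resistant line selected from DTXR and kept in 5 nM cabazitaxel. DTXR is a docetaxel-resistant line selected from DU145 and kept in 5 nM docetaxel. DU145 is their parent. CabR is a cabazitaxel-resistant line selected from TaxR and kept in 5 nM cabazitaxel, TaxR is a docetaxel-resistant line selected from C4-2B and kept in 5 nM docetaxel, and C4-2B, their parent, is a line that descends from LNCaP. All cells grew in the same serum-containing medium and are labelled as untreated before harvest. There is 1 line per selection step, and the labels do not say whether a line is a clone. The TaxR title adds the word old, with no explanation.

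Interferons are secreted when sensors of foreign or misplaced RNA and DNA in a cell activate transcription factors of the IRF family. The interferon binds its receptor on the same or a neighbouring cell, Janus kinases phosphorylate STAT proteins, and STAT2 joins IRF9 in ISGF3, a complex that binds interferon-stimulated response elements in the promoters of its target genes. Many targets are themselves sensors or factors of the pathway, and in tumours the same genes can stay expressed at a low level without infection.

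The libraries carried the marks of their labelled lineages. All 10 genes fixed as markers of the C4-2B side, among them KLK3, reached 1 FPKM in CabR, TaxR and C4-2B, against 3 of 10 in CTXR, DTXR and DU145. FPKM is a read level scaled to transcript length and library size. The TaxR library stood apart, since all 10 markers of the DU145 side reached 1 FPKM there, against 3 of 10 in CabR and 2 of 10 in C4-2B. The level of those genes would correspond to a DU145-lineage share of 1.38% of the TaxR library, and the calls in TaxR against C4-2B are given with and without that share. No leukocyte marker of 6 reached 1 FPKM in any library, and PTPRC, which every leukocyte carries, was listed at 0 in all 6. Total FPKM ran from 711766 to 818430, and mitochondrial genes took 35.3% to 40.7% of it in the DU145 lineage and 17.9% to 27.9% in the C4-2B lineage. No counting interval is given, since the read depth is unknown.

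Promoters of the list were searched for the core of the element that ISGF3 recognises, to show what the members share beyond their levels. RefSeq windows from 250 bases before to 50 after the annotated start (GRCh38.p14) were matched for 36 of 47 members. The core searched for was GAAANNGAAA, on both strands, with overlapping matches counted. It occurred in at least 1 window of 23 of 36 members (63.9%), against 1195 of 27305 genes in the table (4.38%). The gamma-activated site core TTCNNNGAA occurred in 10 of 36 members (27.8%), against 2560 of 27305 genes (9.38%). The member windows held 42 distinct cores, counting once a core that lies in several windows. These are matches of letters, not bound sites. The genes were listed for their place in the interferon response, so the excess over all genes describes the list and not these lines. Among members with a window, the core was found in 4 of 6 that were higher in CTXR only, in 2 of 3 higher in DTXR only, in 5 of 7 higher in both, in 9 of 15 other measured members and in 3 of 5 members that were not measured. These shares ran from 60.0% to 71.4%.

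Promoters of 5 members are shown, 1 or more for each pattern of change described further on, each 5′ to 3′ on the strand of the gene with the core in capitals. ISG15 was higher in both DU145 sublines, and its window (chr1:1013247-1013546, plus strand) has overlapping cores at positions -113 and -107 from the start. IFI6 was higher in CTXR only, and its window (chr1:27672143-27672442, minus strand) has 3 cores, the first ones at positions -156 and -115. MX1 was higher in DTXR only, and the window shown (chr21:41420308-41420607, plus strand) has 1 core just past the start, at position 12. DTX3L was also higher in DTXR only and in TaxR, and the core in its window (chr3:122564088-122564387, plus strand) is shared with the divergent promoter of PARP9. BST2 was lower in both C4-2B sublines, and its window (chr19:17405581-17405880, minus strand) has overlapping cores that form a run of 3 GAAA repeats.
ISG15: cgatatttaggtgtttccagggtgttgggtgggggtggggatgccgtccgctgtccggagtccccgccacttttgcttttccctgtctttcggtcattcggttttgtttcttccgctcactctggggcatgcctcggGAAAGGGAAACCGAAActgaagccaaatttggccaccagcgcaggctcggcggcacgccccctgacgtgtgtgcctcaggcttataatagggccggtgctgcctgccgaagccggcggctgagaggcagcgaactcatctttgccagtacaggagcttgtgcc
IFI6: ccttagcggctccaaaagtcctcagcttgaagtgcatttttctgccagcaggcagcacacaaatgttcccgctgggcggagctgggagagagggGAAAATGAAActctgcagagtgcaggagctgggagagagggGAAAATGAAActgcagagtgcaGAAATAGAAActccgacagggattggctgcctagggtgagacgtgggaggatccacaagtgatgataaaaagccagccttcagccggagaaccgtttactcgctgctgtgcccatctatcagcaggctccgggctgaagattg
MX1: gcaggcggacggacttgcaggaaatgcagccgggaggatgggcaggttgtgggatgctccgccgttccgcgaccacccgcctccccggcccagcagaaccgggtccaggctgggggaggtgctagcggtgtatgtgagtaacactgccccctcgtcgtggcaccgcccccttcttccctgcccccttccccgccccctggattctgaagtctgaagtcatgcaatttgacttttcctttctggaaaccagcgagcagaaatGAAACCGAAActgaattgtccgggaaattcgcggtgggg
DTX3L: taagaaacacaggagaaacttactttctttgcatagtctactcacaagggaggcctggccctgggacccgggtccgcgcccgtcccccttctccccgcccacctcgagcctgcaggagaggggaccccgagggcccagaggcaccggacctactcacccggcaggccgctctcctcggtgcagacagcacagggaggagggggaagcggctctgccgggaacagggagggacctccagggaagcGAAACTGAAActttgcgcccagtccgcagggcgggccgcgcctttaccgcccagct
BST2: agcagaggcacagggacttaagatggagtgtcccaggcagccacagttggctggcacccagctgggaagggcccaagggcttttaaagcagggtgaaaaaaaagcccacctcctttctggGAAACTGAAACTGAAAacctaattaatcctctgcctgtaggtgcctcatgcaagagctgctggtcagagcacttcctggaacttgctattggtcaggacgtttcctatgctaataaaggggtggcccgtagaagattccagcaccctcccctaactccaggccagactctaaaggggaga

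**Figure D1:**
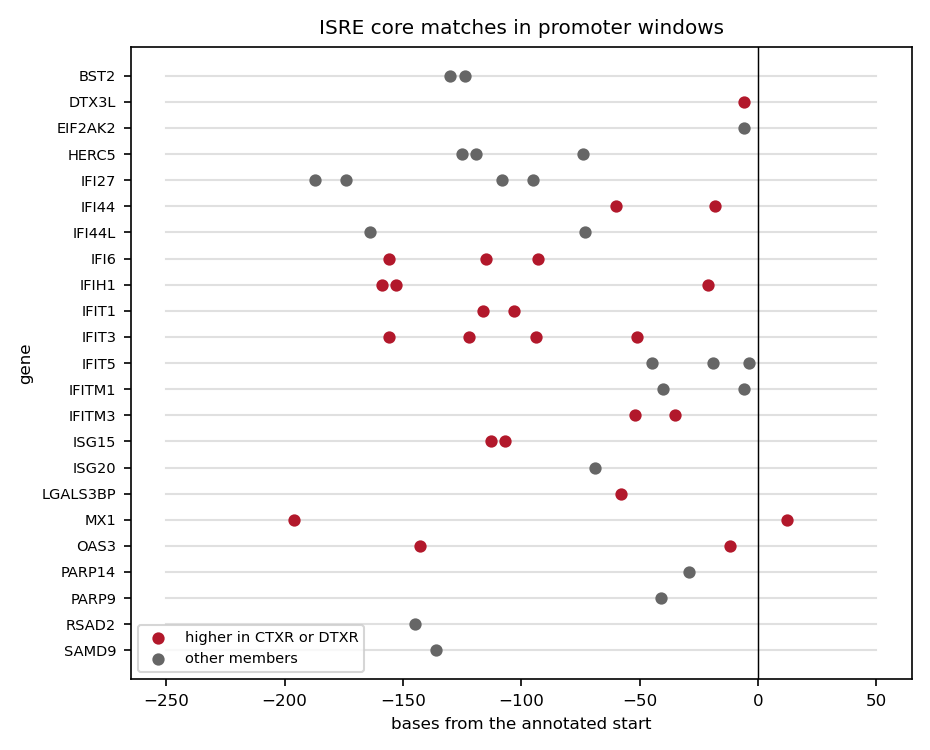
Position of response element core matches (points, in bases from the annotated start at 0) in the RefSeq promoter windows of the 23 members that hold one, with members higher in CTXR or DTXR than in DU145 in red and the others in grey. Most points lie within 150 bases before the start in both colours, and MX1, which has several windows, holds the only match that begins after a start.

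Every resistant line was set against its parent, and CTXR and CabR also against DTXR and TaxR. Ratios are of FPKM + 1 on the log2 scale, which understates the change of genes with low levels. A gene counted as measured when it reached 1 FPKM in at least 1 library, which 39 of 47 members and 17436 genes in all did. A call, higher or lower, needed a log2 ratio of at least 1 in size and carries no p-value. Because 7 of the 39 measured members reached 1 FPKM in a single library only, part of each count of called members comes from members that had to differ to be measured at all, and the counts are given as a description.

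In the DU145 lineage part of the interferon-stimulated genes were higher in each resistant line, and none was called lower than in the parent. In CTXR against DU145, 17 of 39 measured members were higher and none was lower, where 7.45% of all measured genes were higher and 5.47% lower. In DTXR against DU145, 12 of 39 were higher and none lower, where 5.37% of all measured genes were higher and 5.1% lower. The median log2 ratio of the measured members was 0.86 in CTXR and 0.48 in DTXR, beside a median of 0 over all measured genes in each. In CTXR against DTXR, 12 of 39 were higher and 2 lower, where 7.29% of all measured genes were higher and 5.25% lower, and the median of the members was 0.28. Of the members called higher against DU145, 5 of the 17 in CTXR and 1 of the 12 in DTXR reached 1 FPKM in that library only, which leaves 12 in CTXR and 11 in DTXR. Both comparisons with DU145 rest on the same DU145 library. In RNA from whole cultures, a higher level per cell and a larger share of expressing cells cannot be told apart. Of 6 fibroblast markers 3 reached 1 FPKM in CTXR, 2 in DTXR and 2 in DU145, and the summed level of the 6 was 13.8 FPKM in CTXR and 4.57 FPKM in DTXR, against 4.45 FPKM in DU145. COL3A1 had 6.85 FPKM in CTXR and 0.0296 FPKM in DTXR, against 1.31 FPKM in DU145. COL1A2 had 2.25 FPKM in CTXR and 1.24 FPKM in DTXR, against 0.0762 FPKM in DU145. COL1A1 had 4.58 FPKM in CTXR and 2.33 FPKM in DTXR, against 2.61 FPKM in DU145. DCN and PDGFRB had 0.0966 and 0.063 FPKM in CTXR, and LUM was listed at 0 there. The part of these genes in the result was not tested.

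Called members fell into 3 sets along the lineage. IFIH1, STING1, IRF9, OAS3, IFITM2, IFITM3, ISG15, IFI35 and LGALS3BP, 9 in all, were higher in both lines, a pattern that 2.1% of all measured genes had. STAT2, IFIT1, IFIT2, IFIT3, OASL, SP110, IFI6 and IFI44, 8 in all, were higher in CTXR only, as were 5.35% of all measured genes. IFI16, MX1 and DTX3L, 3 in all, were higher in DTXR only, as were 3.27% of all measured genes. These sets are defined by the 2 ratios to DU145, which largely fix the ratio of CTXR to DTXR, so that ratio is given beside each member as a description only. It was 0.997 for SP110 and -0.56 for DTX3L, both under the rule.

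**Figure D2:**
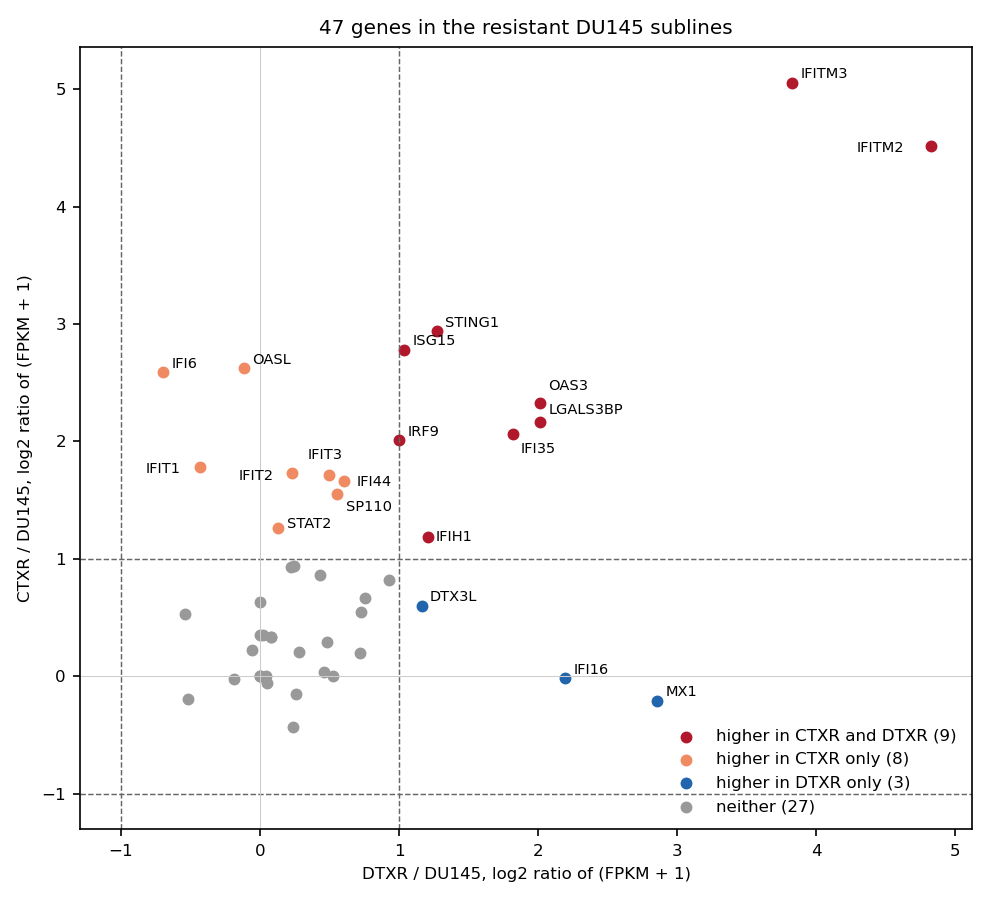
Log2 ratio of FPKM + 1 of all 47 members in DTXR against DU145 (x axis) and in CTXR against DU145 (y axis), with dashed lines at the size rule of 1 and -1 and colours for the 3 sets. IFITM2 and IFITM3 lie far up the diagonal, the CTXR-only members stand above the line with DTXR ratios between -0.70 and 0.61, and MX1 and IFI16 lie near 0 on the CTXR axis.

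In the C4-2B lineage fewer members were called against the parent than in the DU145 lineage. Of the 39 measured members, 29 reached 1 FPKM in the C4-2B lineage and 35 in the DU145 lineage. Members that did not could not be called in that lineage. More members were higher than lower in TaxR, and more were lower than higher in CabR. In CabR against C4-2B, 1 of 39 measured members was higher and 3 were lower, where 2.67% of all measured genes were higher and 6.2% lower, so that the members' shares were near those of all genes. In TaxR against C4-2B, 6 of 39 were higher and 1 lower, where 2.52% of all measured genes were higher and 5.64% lower. In CabR against TaxR, 1 of 39 was higher and 2 were lower, where 1.75% of all measured genes were higher and 1.84% lower. The median log2 ratio of the measured members was 0 in CabR against C4-2B, 0.16 in TaxR against C4-2B and -0.14 in CabR against TaxR. No member was higher in all 4 resistant lines. Both comparisons with C4-2B rest on the same C4-2B library. With the DU145-lineage share taken out of the TaxR library, 6 members were again higher and 1 lower in TaxR, and the median was 0.14. In CabR against TaxR, 1 member was again higher and 2 lower without that share, and the median was -0.08.

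**Figure D3:**
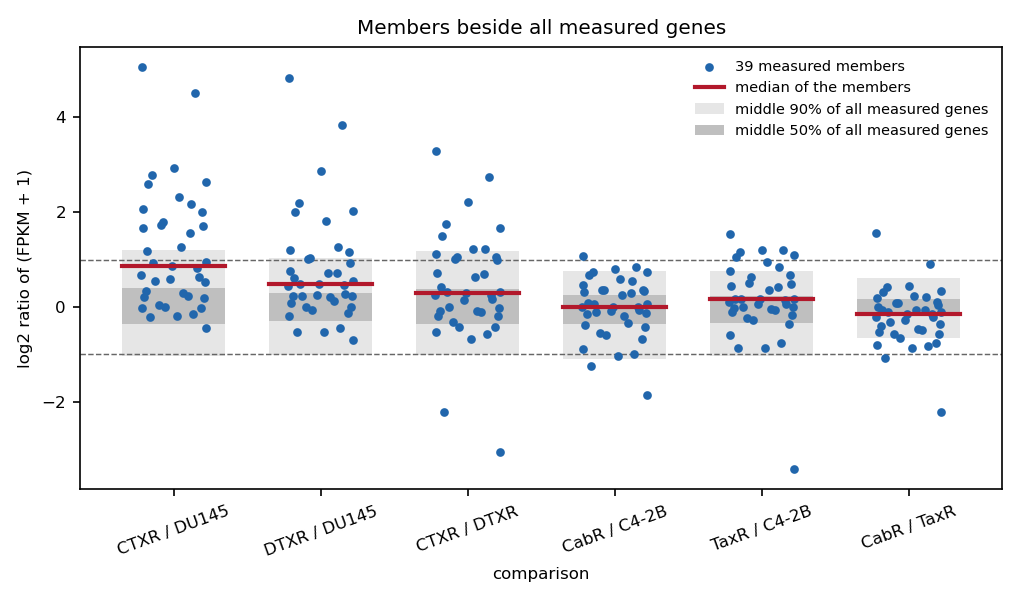
Log2 ratio of FPKM + 1 of the 39 measured members (points) in the 6 comparisons, with their median (red line), the 25th to 75th and 5th to 95th percentiles of all measured genes (dark and light grey) and the size rule (dashed lines). The member medians are 0.86 and 0.48 in the comparisons of CTXR and DTXR with DU145, and between -0.14 and 0.16 in the 3 comparisons within the C4-2B lineage.

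The 2 parents differed in where the list stood before selection. Members at 1 FPKM or more numbered 33 in CTXR, 30 in DTXR and 21 in DU145, and 26 in CabR, 27 in TaxR and 25 in C4-2B. The median level over the 47 members was 3.38 FPKM in CTXR and 3.10 FPKM in DTXR, against 0.835 FPKM in DU145, and 1.21 FPKM in CabR and 1.76 FPKM in TaxR, against 1.24 FPKM in C4-2B. ISG15 was the highest member in all 3 libraries of the C4-2B lineage, STAT2 was the highest in DU145, and IFITM2 was the highest in CTXR and DTXR. The FPKM of all members summed to 614 in CTXR and 476 in DTXR, against 140 in DU145. Without IFITM2 and IFITM3 the sums were 370 in CTXR and 231 in DTXR, against 133 in DU145, so this pair made up most of the gap between DTXR and its parent. In the C4-2B lineage the sums over all members were 304 in CabR and 389 in TaxR, against 313 in C4-2B.

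**Figure D4:**
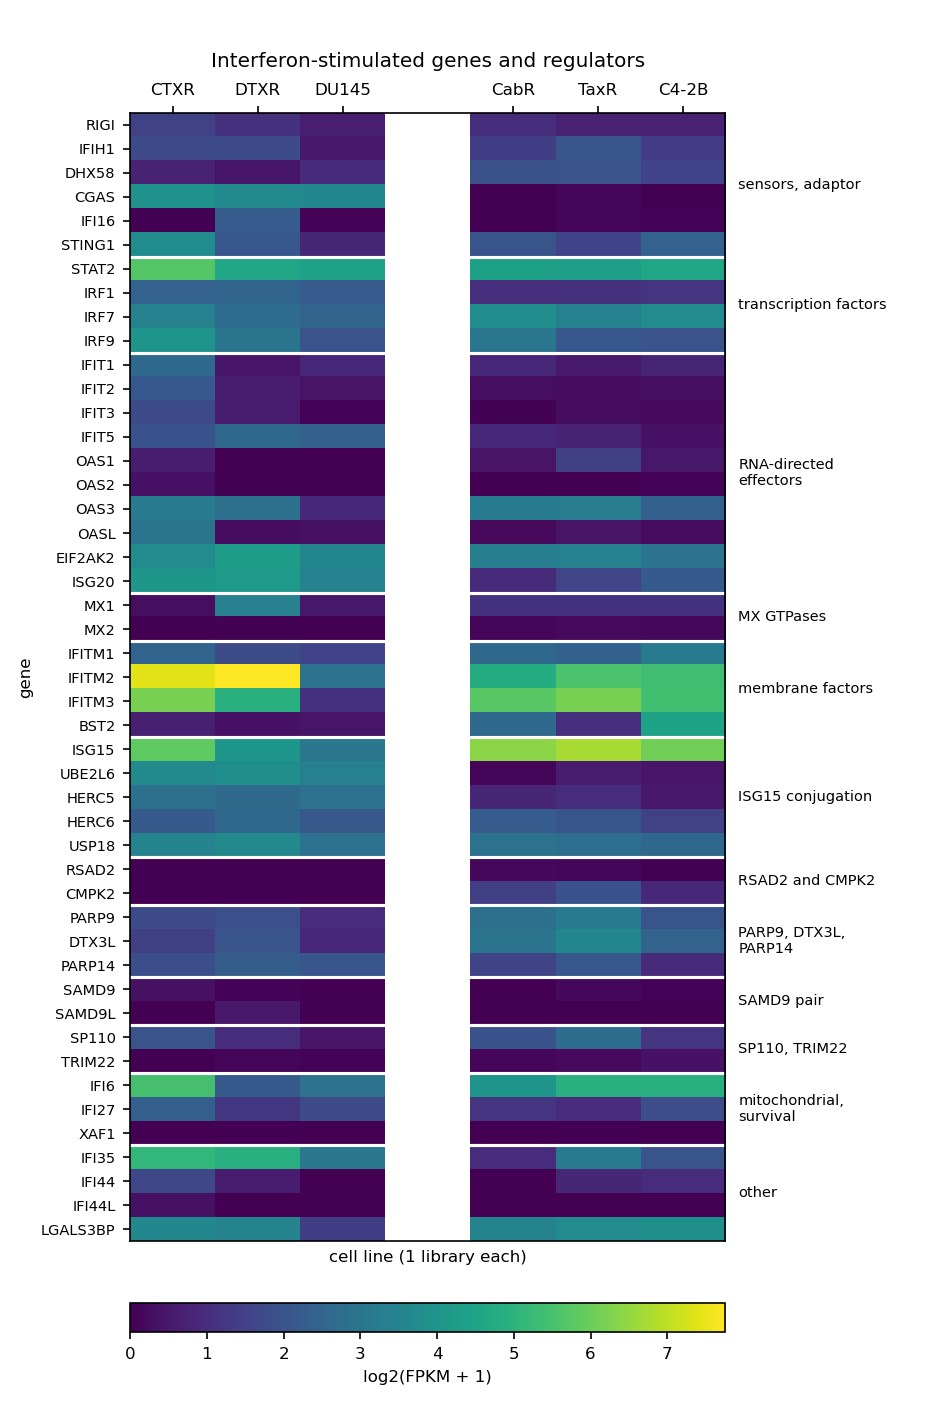
Level of each of the 47 members as log2(FPKM + 1) (colour) in the 6 libraries (columns, 1 per cell line), ordered by role. The brightest cells are IFITM2 in CTXR and DTXR at 173 and 215 FPKM, and the ISG15 row is bright in CabR, TaxR and C4-2B and in CTXR but not in DU145 at 7.35 FPKM.

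Among the sensors, members of the DNA-sensing arm moved most. STING1 is the endoplasmic reticulum adaptor that receives the second messenger made by the DNA sensor cGAS and activates the kinase TBK1. It had 12.6 FPKM in CTXR and 3.28 FPKM in DTXR, against 0.775 FPKM in DU145. In the C4-2B lineage it had 3.01 FPKM in CabR and 1.96 FPKM in TaxR, against 4.40 FPKM in C4-2B. STING1 thus stood above the parent in both DU145 lines and below it in both C4-2B lines, with log2 ratios of 2.94 in CTXR, 1.27 in DTXR, -0.43 in CabR and -0.87 in TaxR. CTXR was also above DTXR by 1.67. CGAS, the sensor itself, differed between the lineages and was called in no comparison, with 14.7 FPKM in CTXR and 12.1 FPKM in DTXR, against 11.4 FPKM in DU145, and at most 0.0761 FPKM in CabR, TaxR or C4-2B. DDX43, which overlaps CGAS on the opposite strand, differed likewise, with 9.34 FPKM in CTXR and 11.2 FPKM in DTXR, against 8.45 FPKM in DU145, and 1.69 FPKM in CabR and 1.82 FPKM in TaxR, against 0.862 FPKM in C4-2B. Reads of the 2 genes cannot be told apart if strand was not used in counting.

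IFI16, a nuclear DNA-binding sensor of the HIN-200 family, was seen in DTXR and hardly elsewhere. It had 0.0365 FPKM in CTXR and 3.81 FPKM in DTXR, against 0.0489 FPKM in DU145, and it was listed at 0 in CabR and had 0.102 FPKM in TaxR, against 0.0597 FPKM in C4-2B. The log2 ratio was 2.20 in DTXR and -0.02 in CTXR, and -2.21 in CTXR against DTXR, although CTXR was selected from DTXR.

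IFIH1 encodes MDA5, the sensor of long double-stranded RNA, and rose alike in both DU145 lines. Its level was 2.30 FPKM in CTXR and 2.34 FPKM in DTXR, against 0.449 FPKM in DU145, with log2 ratios of 1.19 and 1.21. It was 1.72 FPKM in CabR and 3.05 FPKM in TaxR, against 1.60 FPKM in C4-2B, and was called in neither. RIGI, the sensor of short RNA with a 5′ triphosphate, had 1.88 FPKM in CTXR and 1.14 FPKM in DTXR, against 0.587 FPKM in DU145, and its ratios of 0.86 and 0.43 were under the rule. DHX58 encodes LGP2, a helicase that tunes the other RNA sensors, and stayed between 0.347 and 2.94 FPKM in the 6 libraries without a call.

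IRF9 and STAT2, which act together in ISGF3, were highest in CTXR. IRF9, the DNA-binding subunit, had 15.0 FPKM in CTXR and 6.98 FPKM in DTXR, against 2.99 FPKM in DU145. It had 7.28 FPKM in CabR and 3.40 FPKM in TaxR, against 2.94 FPKM in C4-2B. Both cabazitaxel-resistant lines were thus above the line they came from, and IRF9 was the only measured member called higher in CabR than in C4-2B, with a log2 ratio of 1.07. The ratio to DU145 was 2.01 in CTXR and 1.001 in DTXR. The DTXR value lies at the rule and came under it when the libraries had equal totals outside mitochondrial genes (0.99) or equal upper quartiles (0.95). IRF9 overlaps another annotated protein-coding gene on the same strand, AL136295.5, which was listed at 0.731 to 1.78 FPKM, and how the reads were divided between them is not given.

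STAT2, which carries the transactivation domain of ISGF3, had 50.9 FPKM in CTXR and 22.8 FPKM in DTXR, against 20.7 FPKM in DU145. It had 20.03 FPKM in CabR and 18.9 FPKM in TaxR, against 23.1 FPKM in C4-2B. CTXR alone stood apart, at 1.26 above DU145 and 1.13 above DTXR on the log2 scale, while the other 5 libraries lay close together.

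IRF7 amplifies the induction of type I interferon, and IRF1 drives a partly separate set of antiviral genes. IRF7 had 9.81 FPKM in CTXR and 5.62 FPKM in DTXR, against 4.68 FPKM in DU145, and its CTXR ratio of 0.93 was just under the rule. IRF1 had 4.38 FPKM in CTXR and 4.66 FPKM in DTXR, against 3.65 FPKM in DU145. In the C4-2B lineage IRF7 lay between 9.51 and 13.0 FPKM and IRF1 between 1.06 and 1.24 FPKM, with no call.

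The IFIT proteins bind viral RNA and stop its translation, and their genes lie together at chr10:89283694-89421001. IFIT1, IFIT2 and IFIT3 reached 1 FPKM in CTXR only. IFIT1, which recognises RNA caps that lack methylation, had 5.31 FPKM in CTXR and 0.357 FPKM in DTXR, against 0.835 FPKM in DU145. IFIT2 had 3.38 FPKM in CTXR and 0.554 FPKM in DTXR, against 0.322 FPKM in DU145. IFIT3, which stabilises IFIT1 on RNA, had 2.47 FPKM in CTXR and 0.494 FPKM in DTXR, against 0.0608 FPKM in DU145. All 3 rose in CTXR, with log2 ratios to DU145 of 1.78, 1.73 and 1.71, and stood above DTXR by 2.22, 1.49 and 1.22. With a pseudocount of 0.1 in place of 1 the ratios of IFIT1 and IFIT2 to DU145 were 2.53 and 3.04 and that of IFIT3 was higher still, so their sizes depend on the pseudocount. All 3 stayed under 1 FPKM in the C4-2B lineage. IFIT1 had 0.843 FPKM in CabR and 0.465 FPKM in TaxR, against 0.727 FPKM in C4-2B. IFIT2 had 0.218 FPKM in CabR and 0.188 FPKM in TaxR, against 0.225 FPKM in C4-2B. IFIT3 had 0.0365 FPKM in CabR and 0.193 FPKM in TaxR, against 0.14 FPKM in C4-2B. The neighbour IFIT5 did not move with them and had 2.85 FPKM in CTXR and 5.11 FPKM in DTXR, against 4.19 FPKM in DU145. The gene LIPA overlaps IFIT1, IFIT2 and IFIT3 on the opposite strand and had 33.9 FPKM in CTXR and 31.4 FPKM in DTXR, against 44.3 FPKM in DU145. The library kit marks strand, but whether counting used it is not given, so a share of LIPA reads in the IFIT values cannot be told apart.

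The oligoadenylate synthetases make a nucleotide messenger on sensing double-stranded RNA, and OAS1, OAS3 and OAS2 lie at chr12:112906777-113011723. OAS3, the largest of them, had 8.14 FPKM in CTXR and 6.35 FPKM in DTXR, against 0.822 FPKM in DU145. It had 8.28 FPKM in CabR and 8.65 FPKM in TaxR, against 4.36 FPKM in C4-2B. OAS3 was thus above the parent in all 4 resistant lines, with ratios of 2.33 in CTXR and 2.01 in DTXR past the rule and 0.79 in CabR and 0.85 in TaxR under it. Its neighbours stayed low. OAS1 reached 1 FPKM in TaxR only (1.76 FPKM, against 0.423 FPKM in C4-2B), was 0.315 FPKM in CabR and so fell by 1.07 in CabR against TaxR, and was listed at 0 in DTXR and DU145 and at 0.548 FPKM in CTXR. OAS2 was not measured, with 0.309 FPKM in CTXR as its highest value.

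OASL, which lacks synthetase activity and enhances RIG-I signalling, lies apart from the cluster at chr12:121019111-121039242. It had 6.94 FPKM in CTXR and 0.183 FPKM in DTXR, against 0.285 FPKM in DU145, and 0.145 FPKM in CabR and 0.327 FPKM in TaxR, against 0.196 FPKM in C4-2B. CTXR was the only library in which it reached 1 FPKM, with a ratio of 2.63 to DU145 and 2.75 to DTXR.

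Of the other RNA-directed effectors, ISG20 was lower in CabR. This exonuclease had 0.952 FPKM in CabR and 2.06 FPKM in TaxR, against 3.59 FPKM in C4-2B, with a log2 ratio of -1.23 in CabR. In the DU145 lineage it had 16.1 FPKM in CTXR and 17.2 FPKM in DTXR, against 9.79 FPKM in DU145, above the parent but under the rule. EIF2AK2 encodes PKR, the kinase that halts translation on double-stranded RNA, and had 12.5 FPKM in CTXR and 18.4 FPKM in DTXR, against 10.8 FPKM in DU145. No call was made for it in either lineage.

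MX1, a dynamin-like GTPase that blocks influenza and other viruses, was high in DTXR only. It had 0.231 FPKM in CTXR and 9.30 FPKM in DTXR, against 0.422 FPKM in DU145. The levels in CabR, TaxR and C4-2B were nearly the same, at 1.21, 1.21 and 1.22 FPKM. The log2 ratio of DTXR to DU145 was 2.86, and that of CTXR to DTXR was -3.07. Its neighbour MX2, which acts on retroviruses (both genes at chr21:41361943-41459214), was not measured and had 0.0305 FPKM in DTXR.

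The IFITM proteins sit in cell and endosome membranes and block the fusion of viruses with them, and IFITM2, IFITM1 and IFITM3 lie at chr11:307631-327537. IFITM2 had 173 FPKM in CTXR and 215 FPKM in DTXR, against 6.61 FPKM in DU145. IFITM3 had 70.4 FPKM in CTXR and 29.5 FPKM in DTXR, against 1.15 FPKM in DU145. Both rose in both lines, with log2 ratios of 4.52 in CTXR and 4.83 in DTXR for IFITM2 and of 5.06 and 3.83 for IFITM3. In the C4-2B lineage both were already high in the parent. IFITM2 had 27.0 FPKM in CabR and 46.2 FPKM in TaxR, against 40.9 FPKM in C4-2B. IFITM3 had 53.4 FPKM in CabR and 71.0 FPKM in TaxR, against 41.7 FPKM in C4-2B, all above the level in DTXR. IFITM1 did not follow its neighbours and had 4.66 FPKM in CTXR and 2.48 FPKM in DTXR, against 1.95 FPKM in DU145. The 3 genes are close paralogs and the annotated IFITM1 and IFITM2 overlap on the same strand, so the division of reads among them is uncertain.

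BST2, or tetherin, holds budding viruses on the cell surface and was lower in both resistant C4-2B lines. It had 5.26 FPKM in CabR and 1.13 FPKM in TaxR, against 21.8 FPKM in C4-2B. The ratios were -1.86 in CabR and -3.42 in TaxR, and CabR stood above TaxR by 1.56. In the DU145 lineage it stayed low, with 0.598 FPKM in CTXR and 0.312 FPKM in DTXR, against 0.366 FPKM in DU145. BST2 was the only measured member called lower in both resistant lines of a lineage. Its ratio in TaxR was -3.42 also without the DU145-lineage share, a step that could hardly change it, since BST2 was so low in DU145.

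ISG15, a ubiquitin-like modifier that is attached to proteins or secreted, had 56.4 FPKM in CTXR and 16.1 FPKM in DTXR, against 7.35 FPKM in DU145. It had 83.2 FPKM in CabR and 107 FPKM in TaxR, against 66.5 FPKM in C4-2B. CTXR came close to the level of C4-2B, and DTXR lay between CTXR and DU145. The log2 ratio was 2.78 in CTXR and 1.04 in DTXR, and the DTXR value came under the rule at equal upper quartiles (0.97). The enzymes that attach or remove ISG15 did not follow it. UBE2L6, the conjugating enzyme, had 11.7 FPKM in CTXR and 13.6 FPKM in DTXR, against 9.41 FPKM in DU145, and at most 0.539 FPKM in the C4-2B lineage. HERC5, the ISG15 ligase, had 6.22 FPKM in CTXR and 5.47 FPKM in DTXR, against 6.36 FPKM in DU145, and at most 0.983 FPKM in the C4-2B lineage. The C4-2B lineage thus had the modifier at a high level with little transcript of either enzyme. USP18, which removes ISG15 and also dampens the interferon receptor, had 10.0 FPKM in CTXR and 11.5 FPKM in DTXR, against 6.58 FPKM in DU145, and HERC6, a relative of HERC5, lay between 1.84 and 5.18 FPKM in the 6 libraries. None of these 4 was called in any comparison.

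**Figure D5:**
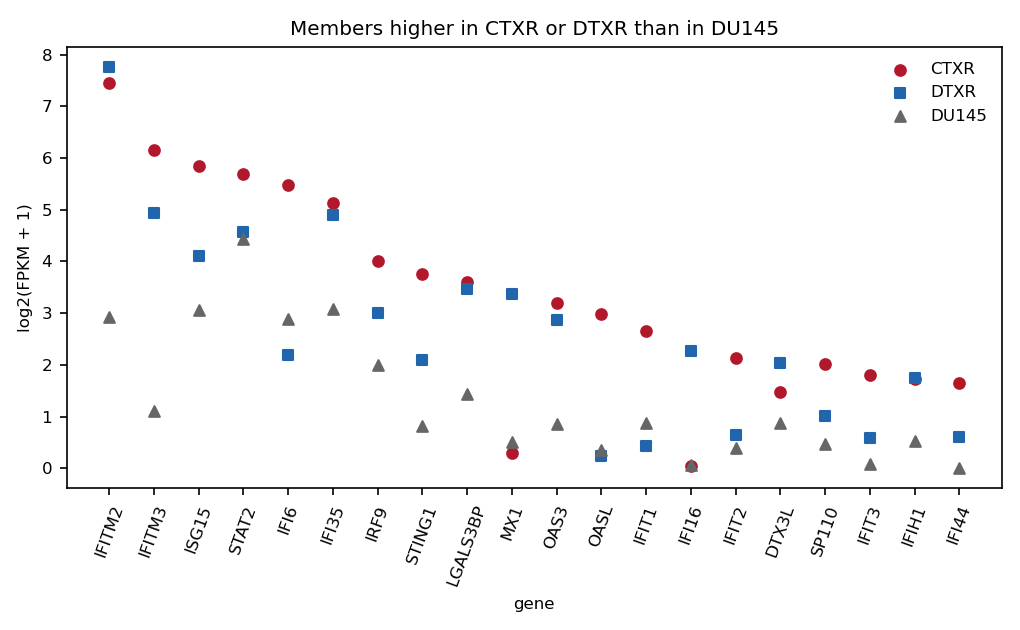
Level, as log2(FPKM + 1), of the 20 members called higher in CTXR or DTXR than in DU145, in CTXR (circles), DTXR (squares) and DU145 (triangles), 1 library each. IFITM2 is at 173, 215 and 6.61 FPKM, the CTXR circle stands alone above the other 2 symbols for IFI6, OASL and IFIT1, and the DTXR square stands alone for MX1 and IFI16.

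PARP9, DTX3L and PARP14 lie at chr3:122527924-122730840 and were the group that moved in TaxR. DTX3L, a ubiquitin ligase, works as a heterodimer with the ADP-ribosyltransferase PARP9, and their genes share a promoter region. DTX3L had 6.98 FPKM in CabR and 10.8 FPKM in TaxR, against 4.50 FPKM in C4-2B. PARP9 had 6.27 FPKM in CabR and 8.08 FPKM in TaxR, against 3.07 FPKM in C4-2B. PARP14, a mono-ADP-ribosyltransferase, had 2.04 FPKM in CabR and 3.34 FPKM in TaxR, against 0.898 FPKM in C4-2B. All 3 had the same order, with TaxR highest and CabR between it and the parent. The log2 ratios in TaxR were 1.10, 1.16 and 1.19, and those in CabR, 0.54, 0.84 and 0.68, were under the rule. Without the DU145-lineage share the TaxR ratios were 1.10, 1.15 and 1.18.

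In the DU145 lineage the first pair moved alike. DTX3L had 1.78 FPKM in CTXR and 3.10 FPKM in DTXR, against 0.830 FPKM in DU145. PARP9 had 2.45 FPKM in CTXR and 2.74 FPKM in DTXR, against 0.963 FPKM in DU145. Both stood above DU145 in both lines, but only DTX3L in DTXR was past the rule, at 1.16, with PARP9 at 0.93. PARP14 had 2.68 FPKM in CTXR and 3.90 FPKM in DTXR, against 3.09 FPKM in DU145. DTX3L and PARP9 overlap on opposite strands, so without strand in counting a part of their reads could not be told apart.

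SP110, an interferon-induced protein of nuclear bodies, was called in both lineages. It had 3.04 FPKM in CTXR and 1.03 FPKM in DTXR, against 0.379 FPKM in DU145, with a ratio of 1.55 in CTXR. It had 2.87 FPKM in CabR and 5.76 FPKM in TaxR, against 1.32 FPKM in C4-2B, with a ratio of 1.54 in TaxR with or without the DU145-lineage share. All 4 resistant lines stood above their parent, by 0.56 in DTXR and 0.74 in CabR. TRIM22, an antiviral ubiquitin ligase, was not measured and was highest in C4-2B at 0.309 FPKM.

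CMPK2, a mitochondrial nucleotide kinase, and RSAD2, or viperin, an enzyme that makes a chain-terminating nucleotide, are neighbours at chr2:6840570-6898239. CMPK2 had 1.78 FPKM in CabR and 2.86 FPKM in TaxR, against 0.845 FPKM in C4-2B. The ratio in TaxR was 1.06. It was listed at 0 in CTXR, DTXR and DU145. RSAD2, which is induced with CMPK2 in most cells, reached no more than 0.111 FPKM, in CabR.

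IFI6, a small mitochondrial and endoplasmic reticulum protein that delays apoptosis, was the CTXR-only member with the highest level after STAT2. It had 43.8 FPKM in CTXR and 3.59 FPKM in DTXR, against 6.43 FPKM in DU145. It had 15.2 FPKM in CabR and 28.6 FPKM in TaxR, against 28.97 FPKM in C4-2B. CTXR stood above every other library, by 2.59 against DU145 and 3.29 against DTXR, while DTXR was below its parent at -0.70. Its relative IFI27 had 4.04 FPKM in CTXR and 1.41 FPKM in DTXR, against 2.50 FPKM in DU145, and was past the rule in CTXR against DTXR only, at 1.06. XAF1, a proapoptotic factor that is a classical interferon target, was listed at 0 in all 6 libraries.

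IFI35, a leucine zipper protein that binds the STAT partner NMI, moved in all 4 resistant lines but not in 1 direction. It had 34.1 FPKM in CTXR and 28.7 FPKM in DTXR, against 7.42 FPKM in DU145. It had 0.989 FPKM in CabR and 8.26 FPKM in TaxR, against 3.04 FPKM in C4-2B. The log2 ratios were 2.06 in CTXR, 1.82 in DTXR and 1.20 in TaxR, and that of CabR to TaxR was -2.22. The ratio of CabR to C4-2B, -1.02, came under the rule with median-ratio size factors (-0.98), equal totals outside mitochondrial genes (-0.96) or equal upper quartiles (-0.98). Without the DU145-lineage share the TaxR ratio was 1.18.

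LGALS3BP, a secreted glycoprotein that binds galectins, rose to nearly the same level in both DU145 lines, with 11.2 FPKM in CTXR and 10.0 FPKM in DTXR, against 1.72 FPKM in DU145. The levels in CabR, TaxR and C4-2B were 10.1, 12.3 and 13.4 FPKM. The parental DU145 library was the one low library of the 6, and the ratios were 2.16 in CTXR and 2.02 in DTXR. IFI44, a protein with antiproliferative activity, had 2.16 FPKM in CTXR and 0.523 FPKM in DTXR, and was listed at 0 in DU145. It was listed at 0 in CabR and had 0.767 FPKM in TaxR and 0.991 FPKM in C4-2B. IFI44 was thus above 1 FPKM in CTXR only. Its neighbour IFI44L was not measured and was highest in CTXR at 0.278 FPKM. SAMD9 and SAMD9L, restriction factors for poxviruses, were not measured either, with highest values of 0.264 FPKM in CTXR and 0.438 FPKM in DTXR.

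The lines were then searched for the other parts of the pathway, in lists of genes outside the 47. None of 10 interferon genes reached 1 FPKM in any library. IFNE, an interferon of epithelia that does not depend on infection, had 0.615 FPKM in CTXR and 0.652 FPKM in DTXR, against 0.607 FPKM in DU145, and IFNL2 had 0.257 FPKM in DU145. The other 8 were listed at 0 throughout. Interferon genes outside these 10 were not looked at, and a part of any interferon in the levels of the members was not tested.

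All 9 receptor and Janus kinase genes were measured, and 2 were higher in CTXR, beside 7.45% of all measured genes. IFNAR2, the signalling chain of the type I receptor, had 33.4 FPKM in CTXR and 23.1 FPKM in DTXR, against 12.7 FPKM in DU145. IL10RB, its neighbour and a chain of the interferon lambda receptor, had 31.7 FPKM in CTXR and 19.1 FPKM in DTXR, against 13.2 FPKM in DU145. Both had the order of ISG15, with ratios of 1.32 and 1.20 in CTXR. None of the 9 was called in DTXR, CabR or TaxR against its parent. Of all measured genes 5.37%, 2.67% and 2.52% were higher in these lines.

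Of 9 measured genes for adaptors and kinases of interferon induction, 2 were higher in DTXR, 1 in CTXR and none in CabR or TaxR. The shares of all measured genes were 5.37% in DTXR, 7.45% in CTXR, 2.67% in CabR and 2.52% in TaxR. The counts in CTXR, CabR and TaxR were thus near those of all genes. TRIM25, the ligase that activates RIG-I, had 36.9 FPKM in CTXR and 84.5 FPKM in DTXR, against 29.4 FPKM in DU145. TLR3, the endosomal receptor for double-stranded RNA, had 0.214 FPKM in CTXR and 1.32 FPKM in DTXR and was listed at 0 in DU145. IKBKE, a kinase that activates IRF3, had 4.56 FPKM in CTXR and 1.65 FPKM in DTXR, against 1.51 FPKM in DU145. TRIM25 and TLR3 thus had the pattern of MX1 and IFI16, and IKBKE that of STAT2. Of 5 inhibitors of the pathway, IRF2 alone was higher in DTXR, beside 5.37% of all measured genes. It had 5.22 FPKM in CTXR and 7.75 FPKM in DTXR, against 2.29 FPKM in DU145.

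A second list of 31 interferon-induced genes had 27 measured members. In CTXR 8 were higher, beside 7.45% of all measured genes, and in DTXR 7, beside 5.37%. In CabR none was higher, beside 2.67%, and in TaxR 1, beside 2.52%. No gene of the list was lower in any of the 4 lines. The median log2 ratios were 0.71 in CTXR, 0.58 in DTXR, 0 in CabR and 0.19 in TaxR. SP100, a nuclear body protein, had 11.9 FPKM in CTXR and 12.7 FPKM in DTXR, against 0.789 FPKM in DU145. PARP10, an ADP-ribosyltransferase, had 5.72 FPKM in CTXR and 4.86 FPKM in DTXR, against 1.41 FPKM in DU145, and 10.9 FPKM in CabR and 51.6 FPKM in TaxR, against 12.9 FPKM in C4-2B. PARP10 was called in TaxR, at 1.92 on the log2 scale, but CabR lay below the parent, unlike for PARP9, DTX3L and PARP14. LAMP3, a lysosomal membrane protein, had 13.9 FPKM in CTXR and 16.4 FPKM in DTXR, against 4.55 FPKM in DU145. SLFN5 had 1.57 FPKM in CTXR and 6.61 FPKM in DTXR, against 1.72 FPKM in DU145. The genes of the second list thus held more than one pattern, with SP100 and LAMP3 higher in both lines and SLFN5 in DTXR only.

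Of 13 genes typical of interferon gamma, 1 was measured. GBP2, a guanylate-binding GTPase, had 2.45 FPKM in CTXR and 0.921 FPKM in DTXR, against 0.0656 FPKM in DU145, with a ratio of 1.69 in CTXR. It reached 1 FPKM in CTXR only. GBP1 just missed being measured, with 0.998 FPKM in DTXR and 0.0353 FPKM in CTXR, and was listed at 0 in DU145. The DTXR ratio of GBP1, 0.9987, was also just under the rule. The chemokine genes CXCL9, CXCL10 and CXCL11 had at most 0.133 FPKM in any library, and CXCL9 was listed at 0 in all 6.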

How the data were processed

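RNA was measured in 6 prostate cancer lines with 1 library each, grouped by the phenotype given in the labels. Per the labels' protocols, RNA was isolated with TRIzol and libraries were made with a directional, stranded mRNA kit. HISAT, StringTie and Cuffnorm, and GRCh38 as the build, are named without versions per the submitters' processing notes. Not given in the sources used here are the annotation, any joint scaling of the libraries and whether strand was used in counting. Per the file headers, the authors deposited FPKM for 60658 Ensembl identifiers in 1 table per library. FPKM are not counts, so no count model was fitted, the read depth is unknown, and a listed 0 may be a failed estimate.

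Symbols were matched for 56550 identifiers, and coordinates came from GENCODE release 29 (GRCh38). Genes reaching 1 FPKM in at least 1 library were measured, values were taken as log2(FPKM + 1), and a log2 ratio of at least 1 in size was a call, without a p-value. All 47 members are reported, with values in every library for those called against a parent. Of the other gene lists up to 5 genes called against a parent are named, by the size of the ratio. Not every gene this rule takes is reported here. The members and lists were chosen with earlier results of these data known. Promoters are from RefSeq (GRCh38.p14, 36 of 47 members matched), and no protein comparison of the paralogs was made. Alternatives changed the pseudocount, the filter, the scaling and the size rule, removed the DU145-lineage share of TaxR, and, chosen after seeing the data, limited the genes to those measured in the lineage compared. Python 3.11.15, numpy 2.4.6, pandas 2.3.3 and matplotlib 3.10.9 were used.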

Additional observations from a re-analysis of the deposited data

Results flagged for a closer look

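For 6 members every resistant line of one lineage stood above its parent and every resistant line of the other stood below it, with at least 1 value past the size rule. The share of all measured genes with this pattern was not computed, so the count is a description of the members only. With 1 library a line the difference between the lineages was not tested. It is given as the mean log2 ratio of CTXR and DTXR to DU145 minus that of CabR and TaxR to C4-2B. STING1 had the largest difference, 2.75, from a mean of 2.10 in the DU145 lineage and -0.65 in the C4-2B lineage. LGALS3BP had a difference of 2.34, from means of 2.09 and -0.25 in the same order of lineages. IFI44 had a difference of 1.72 (1.13 and -0.58), with DU145 and CabR listed at 0. ISG20 had a difference of 1.62 (0.71 and -0.91), and of its 4 ratios that of CabR alone was past the size rule. IFIT2 had a difference of 1.01 (0.98 and -0.03), and its 3 levels in the C4-2B lineage, 0.218 FPKM in CabR, 0.188 FPKM in TaxR and 0.225 FPKM in C4-2B, were all low. STAT2 had a difference of 0.93 (0.70 and -0.24), which comes mainly from the CTXR library.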

How the results depend on the processing

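The 40 single-member ratios past the size rule against a parent were recomputed with other pseudocounts and scalings, and without the DU145-lineage share of TaxR for the 7 in TaxR. All kept their direction, and all but 3 their side of the rule. The calls between CabR and TaxR and between CTXR and DTXR were recomputed as counts only. IFI35 in CabR came to -0.98 with median-ratio size factors, -0.96 with the same total outside mitochondrial genes and -0.98 with the same upper quartile. IRF9 in DTXR came to 0.99 and 0.95 under the last 2 scalings, and ISG15 in DTXR to 0.97 under the last. Without its DU145-lineage share, TaxR kept 7 of 7 calls. That step could hardly change the calls of BST2 and CMPK2, which had 0.366 and 0 FPKM in DU145. Counts under other settings are named where they differed from the main count by more than 1.5-fold or where either was 0. Smaller shifts are not listed. Members higher in CTXR, for example, numbered 23 with a pseudocount of 0.1 and 13 with a minimum of 5 FPKM. A pseudocount of 0.1 gave 3 members lower in TaxR, 5 higher and 5 lower in CabR, 2 higher and 7 lower in CabR against TaxR, 2 lower in DTXR and 14 higher in both DTXR and CTXR, and one of 0.5 gave 2 lower in TaxR. A minimum of 5 FPKM left 1 lower in CabR against TaxR, 1 lower in CTXR against DTXR and 5 higher in CTXR only. A 1.5-fold rule gave 11 higher and 5 lower in TaxR, 7 and 6 in CabR, 2 and 7 in CabR against TaxR and 1 lower in DTXR. A 4-fold rule left 10 higher in CTXR, 6 in DTXR, 4 in both and 3 in CTXR against DTXR, and in the C4-2B lineage 0 higher in TaxR, 0 higher and 0 lower in CabR, and 0 higher and 1 lower in CabR against TaxR. The shares of all genes called under these other pseudocounts, minimum and size rules were not computed. These counts therefore cannot be set against all genes and are a description. Among the genes measured in the DU145 lineage, 48.6% of 35 members were higher in CTXR and 34.3% in DTXR. The shares of all 15696 genes were 8.28% and 5.96%, in a setting chosen after seeing the data. Only 21 members reached 1 FPKM in DU145, so the rest of the 35 entered this setting through a resistant library alone. This setting therefore cannot remove the part of the counts from members that had to differ to be measured, and its shares are a description. No paired analysis was possible because each line has 1 library.

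With 1 library a line and no read counts, the spread between cultures is unknown for every ratio. Low levels limit IFIT1, IFIT2, IFIT3, OAS1, OASL, IFI16 and IFI44, which reached 1 FPKM in 1 library only. The division of reads is uncertain for the IFITM paralogs and for members that overlap another gene. Those named for it are CGAS, IRF9, IFIT1, IFIT2, IFIT3, DTX3L and PARP9. EIF2AK2 and IRF1 also overlap another expressed gene on the opposite strand, GPATCH11 and C5orf56.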

Other observations

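JAK1, SOCS1 and PLSCR1, genes of the pathway outside the list, were chosen for description after their values were seen. JAK1, the Janus kinase that serves all interferon receptors, had 12.2 FPKM in CTXR and 38.6 FPKM in DTXR, against 19.0 FPKM in DU145, with a log2 ratio of -1.59 between CTXR and DTXR. In the C4-2B lineage JAK1 had 1.19 FPKM in CabR and 1.27 FPKM in TaxR, against 3.33 FPKM in C4-2B. SOCS1, an inhibitor of Janus kinases that interferon itself induces, had 1.47 FPKM in CTXR and 0.114 FPKM in DTXR, against 0.777 FPKM in DU145. It was past the size rule in CTXR against DTXR only, at 1.15. PLSCR1, a phospholipid scramblase with antiviral activity, was listed at 0 in CabR and had 1.16 FPKM in TaxR and 0.971 FPKM in C4-2B, and stood at 25.8 FPKM in CTXR and 26.4 FPKM in DTXR, against 14.5 FPKM in DU145.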
